A study of Mus musculus with 27 samples.

Results

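Calcium handling and pacemaker genes of the heart were followed in differentiating mouse embryonic stem cells. The set was chosen by gene symbol and holds 7 genes: Ryr2, Atp2a2, Pln, Casq2, Slc8a1, Cacna1c and Hcn4. Of these, 6 were measured by 18 probe sets of the array, and they are 6 of the 13297 genes tested. No probe set carried the symbol Hcn4 alone in the annotation table used here, so Hcn4, the main pacemaker channel gene of the sinoatrial node, was not analysed here and the pacemaker side of the set rests on other genes named further on. A gene with several probe sets was represented by the one with the highest mean over 27 arrays, and its other probe sets served as a check.

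In a heart muscle cell each beat begins with calcium that enters through the L-type channel in the cell membrane, whose pore is encoded by Cacna1c. This calcium opens the ryanodine receptor, encoded by Ryr2, in the sarcoplasmic reticulum, the internal calcium store, where calsequestrin, encoded by Casq2, holds calcium ready for release. The pump SERCA2, encoded by Atp2a2 and restrained by phospholamban, encoded by Pln, returns calcium to the store, and the sodium-calcium exchanger NCX1, encoded by Slc8a1, moves it out of the cell. SERCA2 is also made outside muscle, where it fills the endoplasmic reticulum.

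All cells were of the AB2.2 embryonic stem cell line and carried a lentivirus that makes enhanced green fluorescent protein and a short hairpin RNA (shRNA), by which they were sorted on fluorescence before embryoid bodies were formed in hanging drops and plated after 4.5 days. The Sox17 shRNA arm targets Sox17, a transcription factor gene of the endoderm, and the control arm targets firefly luciferase, which mouse cells lack. Both arms were sampled at day 0 and at days 2, 4, 5 and 6 as well as days 8 and 10, with 2 biological replicates per group and a single Sox17 shRNA array at day 0. By its title the series asks how Sox17 acts, through Hhex and Cer1, in the formation of cardiac mesoderm. The RNA comes from whole cultures, so fewer heart muscle cells and less RNA per cell cannot be told apart. Nothing in the labels tells whether replicates were transduced separately, so p-values measure the spread between these arrays.

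Values are log2 expression levels, so a difference of 1 is a 2-fold change, and values of different probe sets are not compared as levels. Over all genes, replicate arrays correlated at 0.964 to 0.998. The targeted gene, Sox17, fell short of its control level by a mean of 1.84 ± 0.46 (SE) over days 6, 8 and 10 (adjusted p = 0.00749). At day 6 its arms overlapped (8.60 and 9.39 against 9.35 and 9.83). Taken by day, the difference passed at day 4 (-3.02, adjusted p = 0.0377) and day 10 (-3.03, adjusted p = 0.0205). It did not pass at days 5, 6 and 8 (adjusted p = 0.307, 0.835 and 0.25). The Sox17 shRNA replicates were unequal early, with Sox17 at 5.53 and 9.39 on day 4 and 7.77 and 10.1 on day 5. The replicates of the Sox17 shRNA arm stood apart from each other in the same gene on each of the 6 days with both arrays. Eif2s3y was lower in replicate 1 by 5.39 to 6.10, against differences of 0.00291 to 0.344 in size between control replicates. Replicate 1 read 3.09 to 3.41 from day 0 on, near the lowest values of the arrays. Replicate 2 read 8.66 to 9.20 and the control arrays 8.05 to 9.30, so replicate 1 differed in this gene from both. Arrays that share a replicate number across days may therefore not be independent, and the standard errors of averages over days may be too small. In a fit of those averages with arm by replicate as a random block, the consensus correlation over all genes was 0.056. No call of the measured genes of the set changed in that fit. The bacterial spike-in bioB was brighter on days 0 and 2 and on day 4 replicate 1 of both arms (9.21 to 9.67) than on the other arrays (6.49 to 7.95). Comparisons that reach back to those days cross this step in the spike-in signal. Where that signal as a covariate changed a call of a measured gene of the set, its value is given. For single genes outside the set, the markers and list genes among them, this was not checked. Comparisons within days 6 to 10 do not cross it.

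Of the 6 measured genes, 4 read near background in embryonic stem cells and rose after plating in the control, Atp2a2 was high throughout, and Casq2 stayed near background. RefSeq promoter windows of GRCm38.p6, from 250 bases before to 50 bases after the start, were found for 6 of the 7 genes. The windows of 3 genes that rose in the control arm are shown beside that of Casq2, which did not rise. Capitals mark AGATAA (the letters of GATA factors), TATAAA (the TATA box), AGGTGT (T-box factors), TNAAGTG (NKX2-5), the MEF2 box or the CArG box of SRF on either strand. CANNTG, the E-box, was searched too and is left in lower case. The Ryr2 window is chr13:12106896-12107195 on the minus strand, that of Slc8a1 is chr17:81738338-81738637 on the minus strand, that of Pln is chr10:53337436-53337735 on the plus strand, and that of Casq2 is chr3:102086165-102086464 on the plus strand.
Ryr2: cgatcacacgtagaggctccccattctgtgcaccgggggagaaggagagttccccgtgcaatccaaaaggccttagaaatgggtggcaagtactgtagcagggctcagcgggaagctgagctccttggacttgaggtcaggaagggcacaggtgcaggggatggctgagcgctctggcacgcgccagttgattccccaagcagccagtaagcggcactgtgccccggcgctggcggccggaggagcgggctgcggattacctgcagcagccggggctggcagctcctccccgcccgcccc
Slc8a1: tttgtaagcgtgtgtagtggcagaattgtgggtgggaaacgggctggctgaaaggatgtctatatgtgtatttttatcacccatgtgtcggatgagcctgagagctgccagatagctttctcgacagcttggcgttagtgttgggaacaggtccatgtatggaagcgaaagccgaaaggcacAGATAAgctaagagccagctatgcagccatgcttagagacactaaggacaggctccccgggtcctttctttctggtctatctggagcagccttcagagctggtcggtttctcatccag
Pln: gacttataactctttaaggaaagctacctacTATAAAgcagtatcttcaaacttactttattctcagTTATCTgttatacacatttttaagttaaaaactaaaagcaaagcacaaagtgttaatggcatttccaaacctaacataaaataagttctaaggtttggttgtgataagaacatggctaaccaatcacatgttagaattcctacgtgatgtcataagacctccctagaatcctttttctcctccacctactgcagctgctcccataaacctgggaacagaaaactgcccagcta
Casq2: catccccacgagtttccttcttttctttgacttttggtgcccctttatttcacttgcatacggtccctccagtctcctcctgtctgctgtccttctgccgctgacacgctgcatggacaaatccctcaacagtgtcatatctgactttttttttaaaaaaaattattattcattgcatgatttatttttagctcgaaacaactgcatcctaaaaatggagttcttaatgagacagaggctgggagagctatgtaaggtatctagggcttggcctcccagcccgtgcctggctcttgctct

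The AGATAA letters lay in the Slc8a1 window on the plus strand from base -68 to -63 and in the Pln window on the minus strand from base -183 to -178, and 11.2% of 32851 windows of the same length hold them. TATAAA lay in the Pln window from base -219 to -214, and 13.6% of windows hold it. The Ryr2 and Casq2 windows held none of the motifs except the E-box, which 72.3% of windows hold. The MEF2 box (0.557% of windows) and the CArG box (1.63%) were in none of the 8 windows of the 6 genes that have one, nor was the NKX2-5 motif (11.5%). The T-box letters (13.7%) lay in 1 of the 3 Cacna1c windows, where they overlap an E-box, and in the Hcn4 window. The windows ranged in GC content from 36.0% for Pln to 81.3% for 1 window of Cacna1c, with 65.3% for Ryr2, 50.7% for Slc8a1 and 44.7% for Casq2, around a median of 52.7% over all windows. No motif was common to the windows of the genes that rose, except the E-box.

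The first comparison dated the appearance of each gene in the control arm. Ryr2, Cacna1c and Slc8a1 rose together between days 5 and 6, in the day after plating, Pln followed between days 6 and 8 and was still rising at day 10, and Atp2a2 rose modestly between days 5 and 6. Between days 5 and 6, 4 of the 6 genes passed the test, each of them higher, where 11.2% of all genes rose. Between days 6 and 8 again 4 of 6 rose, against 5.65% of all genes, and between days 8 and 10 Pln alone passed, as a rise, against 0.263%. Ryr2, Pln, Slc8a1 and Cacna1c exceeded the filter on low values on no array of days 0 to 5. Ryr2 and Slc8a1 exceeded it only on control arrays, and Cacna1c on the 6 control and 4 of the Sox17 shRNA arrays of days 6 to 10, so these genes entered the test through the arrays on which they are high. The counts are therefore a description.

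**Figure D1:**
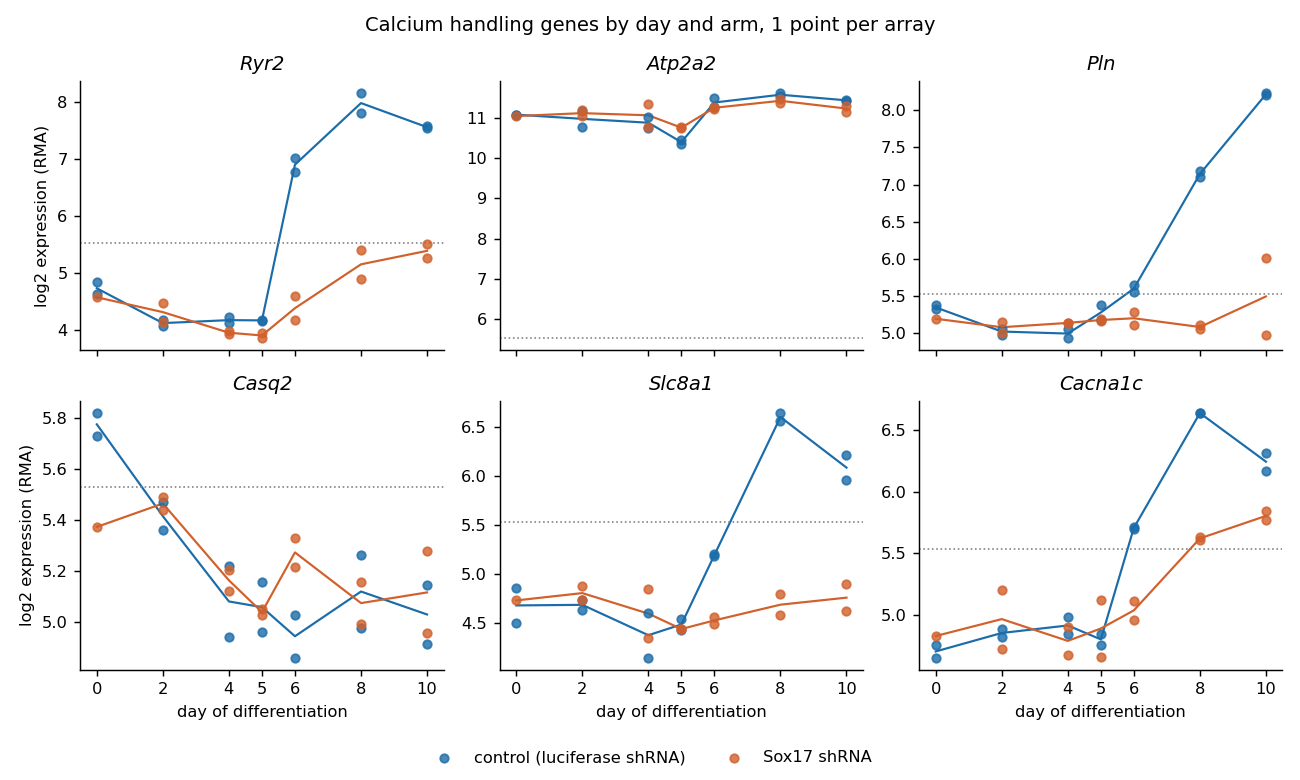
Log2 expression (RMA) of the 6 measured genes by day of differentiation, 1 panel per gene with its own axis. Points are single arrays, lines join the group means, blue is the control and orange the Sox17 shRNA arm, and the dotted line is the filter at 5.53. Control Ryr2 climbs to 6.78 and 7.02 at day 6 while the Sox17 shRNA arrays stay at 4.17 and 4.60, and Casq2 shows no rise in either arm.

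Calcium release was led by Ryr2, the receptor through which the store empties. Its control arrays read 4.08 to 4.84 on days 0 to 4 and 4.17 and 4.17 on day 5, then 7.02 and 6.78 on day 6, 8.15 and 7.81 on day 8, and 7.57 and 7.54 on day 10. Each array of days 6 to 10 lay well above each earlier array. The step from day 5 to day 6 was 2.73 ± 0.18 (SE, 6.64-fold, adjusted p = 1.0e-08), the largest single step of any of the 6 genes. A further rise of 1.08 ± 0.18 followed to day 8 (adjusted p = 0.00103), and the difference of -0.42 from day 8 to day 10 did not pass (adjusted p = 0.796). From day 4 to day 10 control Ryr2 rose 10.4-fold (3.38 ± 0.18, adjusted p = 1.6e-10), where 23.5% of all genes rose and the median gene moved by -0.09. Over that interval 5 of the 6 genes rose.

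Casq2, the calcium buffer of the store, behaved differently. Its control arrays read 5.73 and 5.82 on day 0, 5.36 and 5.47 on day 2, and 4.86 to 5.26 on the arrays of days 4 to 10. It was thus highest in undifferentiated cells, and these 2 arrays were the only ones of the 27 above the filter. Day 10 lay below day 0 by 0.74 ± 0.14 (adjusted p = 0.000179), while from day 4 to day 10 the difference was -0.05 ± 0.14 (adjusted p = 0.781). Casq2 entered the test only through those day 0 arrays, on which it is high, so its fall from day 0 is a description. Its single probe set ends in _s_at, the suffix of probe sets whose probes match several transcripts, and it did not rise at any sampled day. With values this near background, a smaller amount of Casq2 RNA than this probe set can read was not detectable.

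Calcium entry was followed through Cacna1c. Its control arrays read 4.65 to 4.98 on days 0 to 5, 5.72 and 5.70 on day 6, 6.64 and 6.64 on day 8, and 6.17 and 6.32 on day 10. All arrays from day 6 on lay above all earlier ones. The rise was 0.91 ± 0.16 from day 5 to day 6 (1.88-fold, adjusted p = 0.00067) and 0.93 ± 0.16 from day 6 to day 8 (adjusted p = 0.00112), in 2 nearly equal steps, and the later difference of -0.40 did not pass (adjusted p = 0.689).

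Calcium removal from the cell was followed through Slc8a1, the exchanger. Its control arrays read 4.15 to 4.86 on days 0 to 5, 5.20 and 5.19 on day 6, 6.64 and 6.55 on day 8, and 6.21 and 5.95 on day 10. The larger step came later than for Ryr2, with 0.71 ± 0.18 from day 5 to day 6 (adjusted p = 0.00994) and 1.40 ± 0.18 from day 6 to day 8 (2.64-fold, adjusted p = 7.0e-05). The first step lost its call without either day 5 array or without day 6 replicate 1 (adjusted p up to 0.0745). The second held without each array in turn.

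Calcium return to the store involves the pump and its brake, and the brake was the last gene to appear. Pln read 4.93 to 5.38 on the control arrays of days 0 to 5, 5.65 and 5.55 on day 6, 7.10 and 7.18 on day 8, and 8.23 and 8.20 on day 10. Day 6 was above all earlier arrays by a margin that did not pass the test (0.32 ± 0.20, adjusted p = 0.313), and the 2 later steps were 1.54 ± 0.20 (2.92-fold, adjusted p = 0.000115) and 1.07 ± 0.20 (2.10-fold, adjusted p = 0.0248). The last step lost its call when any of its 4 arrays was left out (adjusted p = 0.183 to 0.398), with sizes of 1.03 to 1.11. Its other probe sets, 1423359_at and 1460332_at, read 7.97 and 7.96 and 7.82 and 7.81 at day 10, after 6.66 and 6.75 and 6.35 and 6.34 at day 8, so each of the 3 probe sets was highest at day 10.

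The pump gene Atp2a2 gave answers that depended on the probe set. The brightest, 1427250_at, read 10.34 to 11.18 on control days 0 to 5 and 11.27 to 11.61 on days 6 to 10, so it was high in every sample and the later arrays lay just above the earlier ones. It rose by 0.98 ± 0.15 from day 5, its lowest day, to day 6 (adjusted p = 0.000217), by 0.56 ± 0.15 from day 4 to day 10 (adjusted p = 0.00529) and by 0.36 ± 0.15 from day 0 to day 10 (adjusted p = 0.0417). The last of these did not pass when any 1 of its 4 arrays was dropped (adjusted p = 0.0951 to 0.131), and with the spike-in signal as a covariate it became -0.03. From day 4 the rise did not pass without control day 4 replicate 1 (adjusted p = 0.0834) or with the spike-in covariate (0.31, adjusted p = 0.0981).

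Another probe set of Atp2a2, 1416551_at, rose strongly. It read 7.61 to 8.36 on the control arrays of days 0 to 5, 9.88 and 9.57 on day 6, 11.02 and 10.93 on day 8, and 11.19 and 11.16 on day 10. From day 4 to day 10 it rose 8.70-fold (3.12 ± 0.17, adjusted p = 1.6e-10), and 1452363_a_at rose 6.80-fold (2.77 ± 0.25). In the fit without the filter that covers all 18 probe sets, 1427251_at rose by 0.95 ± 0.19, 1443551_at, which did not pass the filter, by 0.41 ± 0.16, and 1437797_at differed by 0.31 ± 0.15 (adjusted p = 0.13). Atp2a2 is known to give several transcripts that differ at their 3' ends, among them a muscle form and a form found in most cells. Which transcript each probe set reads was not analysed here.

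**Figure D2:**
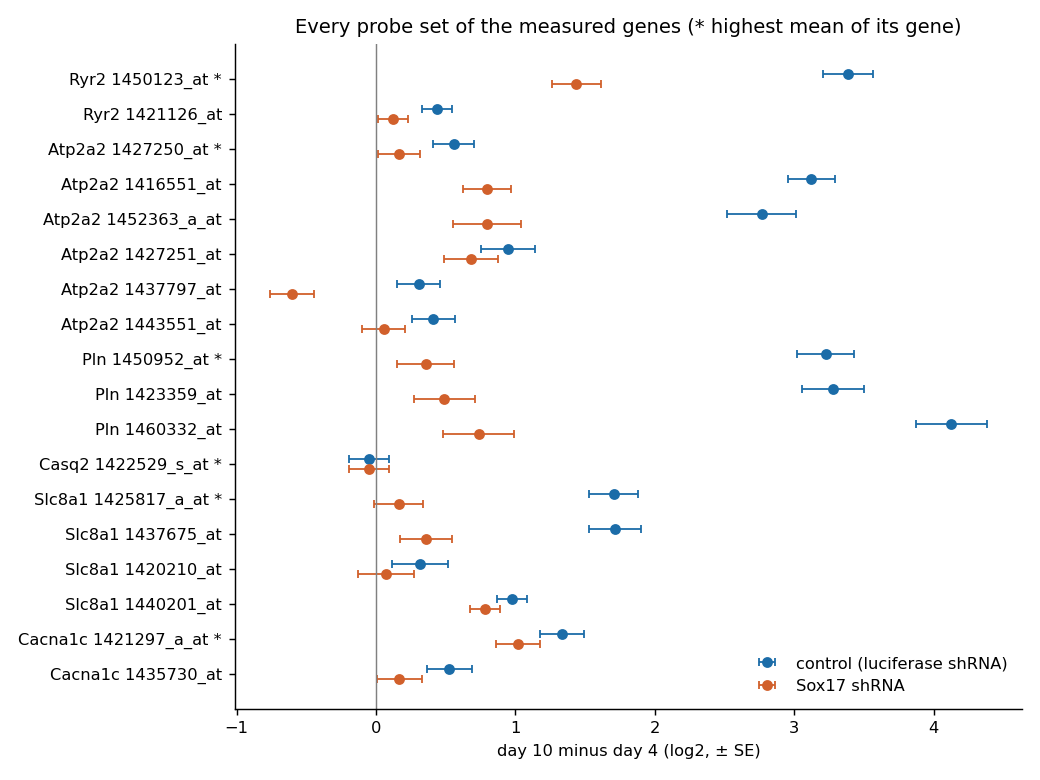
Difference between day 10 and day 4 (log2, mean with SE, 2 arrays against 2) for each of the 18 probe sets, control in blue and Sox17 shRNA arm in orange; an asterisk marks the probe set that represents its gene. The 6 probe sets of Atp2a2 range from 0.31 to 3.12 in the control, and the 3 of Pln from 3.22 to 4.12.

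The main comparison of the study set the arms beside each other. With days 6, 8 and 10 averaged, Ryr2, Pln, Slc8a1 and Cacna1c were lower in the Sox17 shRNA arm, while the brightest Atp2a2 probe set and Casq2 gave no call. On days 0, 2, 4 and 5, none of the 24 tests passed in limma, with differences from -0.40 to 0.36, and 2 had an unadjusted p below 0.05. Ryr2, Pln, Slc8a1 and Cacna1c exceeded the filter on no array of those days, and Casq2 only on the control arrays of day 0. For these genes most of the tests compared values near background, so they cannot tell whether the arms were alike. With the spike-in covariate, 1 of the 6 genes, Atp2a2, passed at day 5 (0.44, adjusted p = 0.0271). On those days 1.89%, 2.54%, 5.14% and 9.39% of all genes passed in either direction. At day 6, 3 of the 6 genes were lower (against 2.36% of all genes), at day 8, 4 of 6 (2.93%) and at day 10, 3 of 6 (4.38%). Averaged over days 6, 8 and 10, 4 of 6 were lower and none higher, against 10.0% of all genes lower, and the median was -1.004 over the 6 genes against 0.02 over all genes. Because 3 of these 4 genes passed the filter only or almost only on control arrays, the count is again a description.

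Ryr2 showed the largest average difference. In the Sox17 shRNA arm its arrays read 3.86 to 4.57 on days 0 to 5, 4.17 and 4.60 on day 6, 5.41 and 4.90 on day 8, and 5.51 and 5.26 on day 10. Both Sox17 shRNA arrays lay below both control arrays on days 6, 8 and 10, and the highest of them stayed below the lowest control array of day 6. They did so on day 4 (3.93 and 3.98 against 4.12 and 4.23) and day 5 (3.86 and 3.95 against 4.17 and 4.17) as well, where the difference did not pass. Of all genes, 14.7%, 24.6%, 19.1%, 26.6% and 27.8% had such a split on days 4, 5, 6, 8 and 10. The difference was -2.52 at day 6, -2.83 at day 8 and -2.17 at day 10 (each ± 0.18), and -2.50 ± 0.10 on average (5.67-fold lower, adjusted p = 5.6e-12). In order of level, control days 8, 10 and 6 came first, and Sox17 shRNA days 10 and 8, whose arrays overlap, came next.

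Pln differed most at the end of the course. Its Sox17 shRNA arrays read 5.00 to 5.19 on days 0 to 5, 5.11 and 5.29 on day 6, 5.05 and 5.11 on day 8, and 4.97 and 6.01 on day 10. At day 8 both arrays were still at the level of stem cells, and at day 10 replicate 2 alone lay above the earlier arrays. The difference between arms was -0.40 ± 0.20 at day 6 (adjusted p = 0.345), -2.06 at day 8 (4.18-fold lower, adjusted p = 2.8e-06) and -2.72 at day 10 (6.61-fold lower, adjusted p = 6.1e-08). Averaged over the 3 days it was -1.73 ± 0.12 (3.31-fold lower, adjusted p = 7.1e-09). The other 2 probe sets showed the same split of the day 10 replicates, with 4.60 and 5.49 for 1423359_at and 3.74 and 5.10 for 1460332_at, and averages of -1.68 and -2.07.

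Slc8a1 hardly left its starting level in the Sox17 shRNA arm. Its arrays read 4.35 to 4.88 on days 0 to 5, 4.56 and 4.50 on day 6, 4.80 and 4.58 on day 8, and 4.90 and 4.62 on day 10. The arms did not overlap from day 6 on. The difference was -0.66 ± 0.18 at day 6 (adjusted p = 0.0356), -1.91 at day 8 (3.75-fold lower, adjusted p = 1.2e-06) and -1.32 at day 10 (2.50-fold lower, adjusted p = 7.2e-05). At day 6 the test was not passed when any 1 of the 4 arrays was dropped (adjusted p = 0.112 to 0.211).

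Of its other probe sets, 1437675_at differed by -1.65 and 1440201_at by -0.45 on average over days 6 to 10, and 1420210_at by -0.18 (adjusted p = 0.392). Both 1440201_at and 1420210_at were below the filter on all arrays. The dim probe set 1440201_at read 4.57 and 4.52 at day 10 of the Sox17 shRNA arm, after 3.80 and 3.73 at day 4, close to the control values of 4.61 and 4.74. The representative probe set showed no such approach.

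Cacna1c was reduced least among the 4. Its Sox17 shRNA arrays read 4.65 to 5.21 on days 0 to 5, 4.96 and 5.11 on day 6, 5.61 and 5.63 on day 8, and 5.77 and 5.84 on day 10. The difference was -0.67 ± 0.16 at day 6 (adjusted p = 0.0155), -1.02 at day 8 (2.03-fold lower, adjusted p = 0.00043) and -0.44 at day 10 (adjusted p = 0.0889), and -0.71 ± 0.09 on average (1.64-fold lower, adjusted p = 1.6e-05). The day 6 call did not hold without either control array of that day or without Sox17 shRNA replicate 1 (adjusted p up to 0.131). At day 10 the arrays did not overlap, yet the test was not passed. It was passed with the mean of the probe sets (-0.37, adjusted p = 0.0218) and with array weights (adjusted p = 0.0173).

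**Figure D3:**
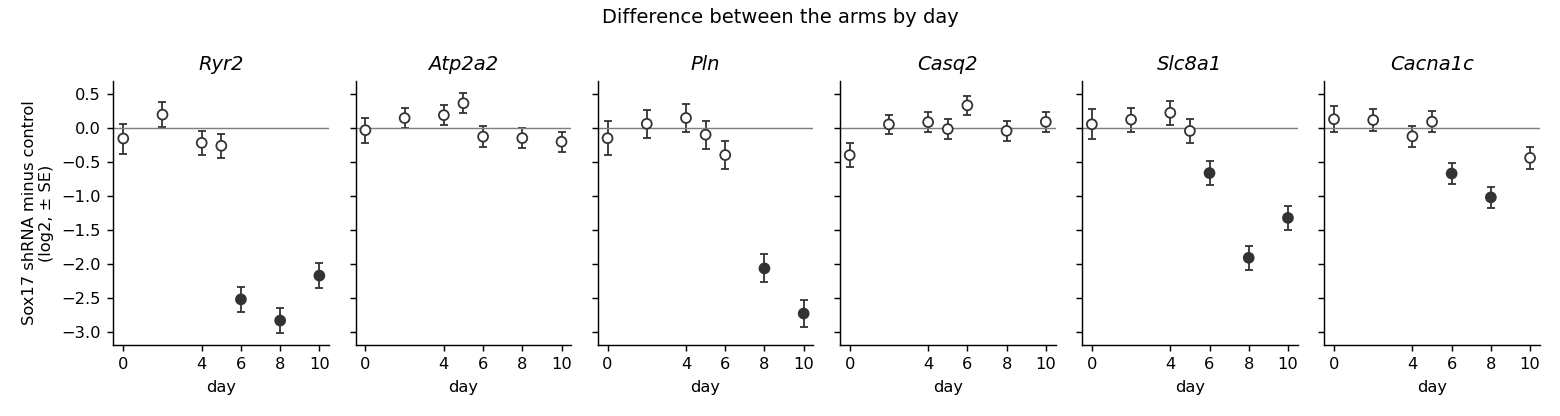
Difference between arms (Sox17 shRNA minus control, log2, mean with SE) by day for the 6 genes. Filled points passed the test (adjusted p below 0.05) and open points did not. No filled point lies before day 6, where Ryr2, Pln, Slc8a1 and Cacna1c exceeded the filter on no array. Ryr2 is lowest at day 8 (-2.83) and Pln at day 10 (-2.72).

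Atp2a2 again depended on the probe set. With 1427250_at the arms differed by -0.16 ± 0.09 on average over days 6, 8 and 10 (95% interval -0.34 to 0.02, adjusted p = 0.22), and the arrays overlapped at day 6 (11.27 and 11.23 against 11.49 and 11.27). On day 8 both Sox17 shRNA arrays (11.38 and 11.47) lay below both control arrays (11.54 and 11.61), as they did on day 10 (11.15 and 11.31 against a lowest control value of 11.415). With 1416551_at the Sox17 shRNA arrays read 8.54 and 8.48 on day 6, 8.89 and 8.73 on day 8, and 8.94 and 9.07 on day 10, each below the control arrays of its day. That difference was -1.85 ± 0.10 (3.60-fold lower, adjusted p = 1.7e-10), and 1452363_a_at gave -1.51 ± 0.14, 1427251_at -0.54 ± 0.11 and 1437797_at -0.43 ± 0.09, all called, while 1443551_at gave -0.27 ± 0.09 (adjusted p = 0.0505). The mean of its probe sets that passed the filter gave -0.90 (adjusted p = 4.9e-08). The representative probe set and the one below the filter were thus the 2 of 6 that gave no call.

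Casq2 differed by 0.12 ± 0.08 on average (adjusted p = 0.352), and its arrays of days 6 to 10 read 4.96 to 5.33 in the Sox17 shRNA arm and 4.86 to 5.26 in the control. At day 6 both Sox17 shRNA arrays (5.33 and 5.22) lay above both control arrays (4.86 and 5.03), by a mean of 0.33 ± 0.14 that did not pass (adjusted p = 0.244). Its largest difference was at day 0, where the single Sox17 shRNA array read 5.37 (-0.40 ± 0.18, adjusted p = 0.308).

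The third comparison asked whether the arms rose differently from day 4, when both were low, to day 10. The rise was smaller in the Sox17 shRNA arm for Ryr2, Pln and Slc8a1, 3 of the 6 genes, where 1.96% of all genes passed in that direction. Both rises use each arm's own day 4 and day 10 arrays. Whether the arm difference was the same on all days from 4 to 10 was asked by an F test, which 4 of the 6 genes and 4.84% of all genes passed. Ryr2 and Slc8a1 exceeded the filter only on control arrays of days 6 to 10, and Pln on these and 1 Sox17 shRNA array. Both counts are therefore a description. Ryr2 rose in both arms, by 3.38 in the control and 1.44 ± 0.18 in the Sox17 shRNA arm (adjusted p = 3.2e-06, where 24.9% of all genes rose), and the rises differed by -1.95 ± 0.25 (adjusted p = 0.00013). Its other probe set, 1421126_at, which was below the filter on all arrays, gave -0.31, which did not pass (adjusted p = 0.412). Pln rose by 3.22 in the control against a difference of 0.36 ± 0.20 in the Sox17 shRNA arm, where the value was 0.88 (adjusted p = 7.3e-05) without day 10 replicate 1 and -0.16 without replicate 2. The rises of Pln differed by -2.87 ± 0.29 (adjusted p = 6.7e-06).

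Slc8a1 rose by 1.70 in the control, against 0.16 ± 0.18 in the Sox17 shRNA arm, which did not pass, and the rises differed by -1.54 ± 0.25 (adjusted p = 0.00126). Its probe set 1437675_at gave -1.36 (adjusted p = 0.00611), while 1420210_at (-0.24, adjusted p = 0.85) and 1440201_at (-0.20, adjusted p = 0.713) did not pass. Neither 1420210_at nor 1440201_at exceeded the filter on any array. Cacna1c rose in both arms by its representative probe set, by 1.33 and 1.02. The difference in rise, -0.32 ± 0.22, did not pass (adjusted p = 0.552). Its other probe set, 1435730_at, read 4.92 and 4.99 on day 4 and 5.40 and 5.56 on day 10 of the control. In the Sox17 shRNA arm that probe set read 5.06 and 4.97 on day 4 and 5.11 and 5.25 on day 10. Atp2a2 gave -0.39 ± 0.21 by its brightest probe set (adjusted p = 0.397) and -2.32 ± 0.24 by 1416551_at (adjusted p = 1.2e-05). The first of these passed without Sox17 shRNA day 4 replicate 1 (-0.67, adjusted p = 0.0462), and without replicate 2 of that group the Sox17 shRNA arm itself rose by 0.45 (adjusted p = 0.0137). Day 4 replicates lie on both sides of the spike-in step, and with control day 4 replicate 1 or replicate 2 alone the control rise was 3.33 or 3.44 for Ryr2, 3.28 or 3.16 for Pln, and 1.93 or 1.48 for Slc8a1.

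Markers of heart muscle moved with these genes. Of 20 heart muscle markers, all 20 rose from day 0 to day 10 of the control, where 31.5% of all genes rose. With days 6, 8 and 10 averaged, 19 were lower with the Sox17 shRNA, against 10.0% of all genes. The differences ran from -4.91 for Myh6, the atrial myosin heavy chain, to -0.22 for Tpm1. Their mean level in the control ranged from 8.70 to 10.27 over the arrays of days 6 to 10, against 5.90 to 7.31 in the Sox17 shRNA arm. Tnnt2, cardiac troponin T, rose by 7.06 between control days 5 and 6, the same interval as Ryr2, and was lower by 4.11 in the Sox17 shRNA arm. Nppa, the atrial natriuretic peptide gene, was lower by 1.32. The differences of Ryr2 and Pln thus lie within the range of the heart muscle markers.

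Markers of other cell types were read in the same way, with days 6, 8 and 10 averaged. Of all genes, 10.0% were lower in this average, and the share that was higher is not given here. Of 7 smooth muscle markers tested, 2 were lower and none higher, with mean levels of 8.00 to 8.67 on control days 6 to 10 and 7.66 to 8.49 in the Sox17 shRNA arm. Of 6 skeletal muscle markers tested, none was lower and 1 higher, and of 10 fibroblast and mesenchyme markers, 8 were higher, with a median of 0.99. Of 7 visceral endoderm markers, 4 were lower and none higher, with a median of -0.71 and mean levels of 7.65 to 9.01 on the control arrays and 6.45 to 8.18 with the Sox17 shRNA. The Sox17 shRNA replicates were unequal, with means of 8.04 and 6.76 at day 8 against 8.07 and 7.65 in the control. At day 10 the means were 8.18 and 6.45 against 9.01 and 9.01. Of 8 endothelial markers 2 were lower, and at day 8 their mean was 7.79 and 6.71 in the Sox17 shRNA replicates against 7.37 and 7.44 in the control. Of 8 neuron markers, 1 was higher and 3 lower, and at day 10 their mean was 5.42 and 5.66 against 6.19 and 6.21. Of 10 pluripotency markers, 3 were higher and 3 lower. The part of these other cells in the results on calcium genes was not tested.

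Other calcium genes were read by list, beside the share of all genes that passed. In the control from day 0 to day 10, 5 of the 6 genes of the set rose, against 31.5% of all genes. Casq2, which passed the filter only on the control day 0 arrays, fell, with 71.5% of all genes called in either direction. Among other genes of calcium release and storage, 6 of 16 tested rose and 5 fell, with a list median of -0.02 against -0.13 for all genes. The share that rose was near that of all genes, so this count is a description. The largest rise was that of Calr, calreticulin, the calcium buffer of the endoplasmic reticulum (1.14), and the largest fall that of Jsrp1 (-1.08), a protein of the junctional sarcoplasmic reticulum. Between arms over days 6 to 10, 3 of 16 were lower, against 10.0% of all genes. These were Srl, sarcalumenin (-1.53 ± 0.09, 2.89-fold), Casq1, the skeletal form of calsequestrin (-1.05 ± 0.10), and Hrc, a histidine-rich calcium-binding protein of the store (-1.05 ± 0.07). Another 3 were higher, at most by 0.27 for Fkbp1b, which encodes a stabiliser of the ryanodine receptor. The proteins that hold the release site in place, Trdn (-0.15) and Jph2 (-0.15), did not pass between arms.

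Among other pumps and exchangers, 2 of 9 rose and 4 fell in the control, where 31.5% of all genes rose. The largest rise was that of the plasma membrane pump Atp2b1 (1.61). The largest fall was that of the exchanger Slc8a2 (-1.004), a form known from brain. Between arms, Atp2a3, the SERCA3 pump, was higher by 0.52 ± 0.11, and S100a1, a calcium-binding partner of SERCA2 and the ryanodine receptor, was lower by 0.48 ± 0.11. None of the other exchangers tested, Slc8a2, Slc8a3 and Slc8b1, passed between arms.

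Of 10 other calcium channel genes, 7 rose in the control, against 31.5% of all genes, and 1 fell (Cacng6, -0.57), led by the T-type channel Cacna1h (3.31, 9.94-fold). Between arms 5 of 10 were lower, against 10.0% of all genes, and none higher: the auxiliary subunit Cacna2d2 (-1.61 ± 0.15), Rrad, a small GTPase that restrains the L-type channel (-1.37 ± 0.12), the beta subunit Cacnb2 (-0.82 ± 0.10), Cacna1h (-0.78 ± 0.10) and Cacna1d (-0.27 ± 0.07). Cacna1c itself, at -0.71, lay among them. Cacna2d1, which also rose in the control from day 4 (1.39), differed between arms by -0.12 (adjusted p = 0.543).

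For the pacemaker side, 9 other genes were tested in place of Hcn4. Hcn2 and Hcn3, the pacemaker channel genes that were tested, did not differ between arms by a margin that passed (0.06 and 0.09), and in the control they fell from day 0 to day 10 (-0.47 and -0.56). Regulators of the sinoatrial node moved more. Isl1, a progenitor and node transcription factor, rose most in the control from day 0 (4.75), and Tbx3 fell (-1.29). Control Tbx3 had means of 8.53 at day 0, 5.89 at day 2 and 7.16 to 7.59 on days 4 to 10. Its fall thus came by day 2 and was followed by a partial return. Between arms 2 of 9 were lower, against 10.0% of all genes. These were Shox2, a transcription factor of the node (-1.14 ± 0.07, 2.21-fold, adjusted p = 5.7e-10), and Popdc2, a cAMP-binding membrane protein of heart muscle (-0.88 ± 0.12). Isl1 (-0.63, adjusted p = 0.0881) and Tbx5 (-0.01) did not pass.

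Of 10 other ion channel and gap junction genes, 5 rose and 2 fell in the control, led by Gja1, the main connexin of working heart muscle (2.54), and Kcnip2 (-1.19). Control Gja1 had means of 9.12 at day 0, 11.94 at day 2 and 11.67 at day 10, so its rise was complete by day 2, before Tnnt2 rose. For this list and the next, 31.5% of all genes rose in the control and 10.0% were lower between arms. Between arms Kcnj5, a subunit of the acetylcholine-gated potassium channel (-1.06 ± 0.09), Kcnh2, the hERG channel (-0.54 ± 0.12), and Gja1 (-0.22 ± 0.06) were lower, and Kcnd3 was higher (0.37 ± 0.11). Of 13 signalling genes, 8 rose and 3 fell in the control, led by the calcineurin subunit Ppp3ca (3.06) and by Camk2b (-1.81). Between arms 3 were lower: Ank2, ankyrin B, which anchors the exchanger (-0.70 ± 0.11), Ppp1r1a, a phosphatase inhibitor (-0.58 ± 0.14), and Akap6, a kinase anchor (-0.42 ± 0.10).

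**Figure D4:**
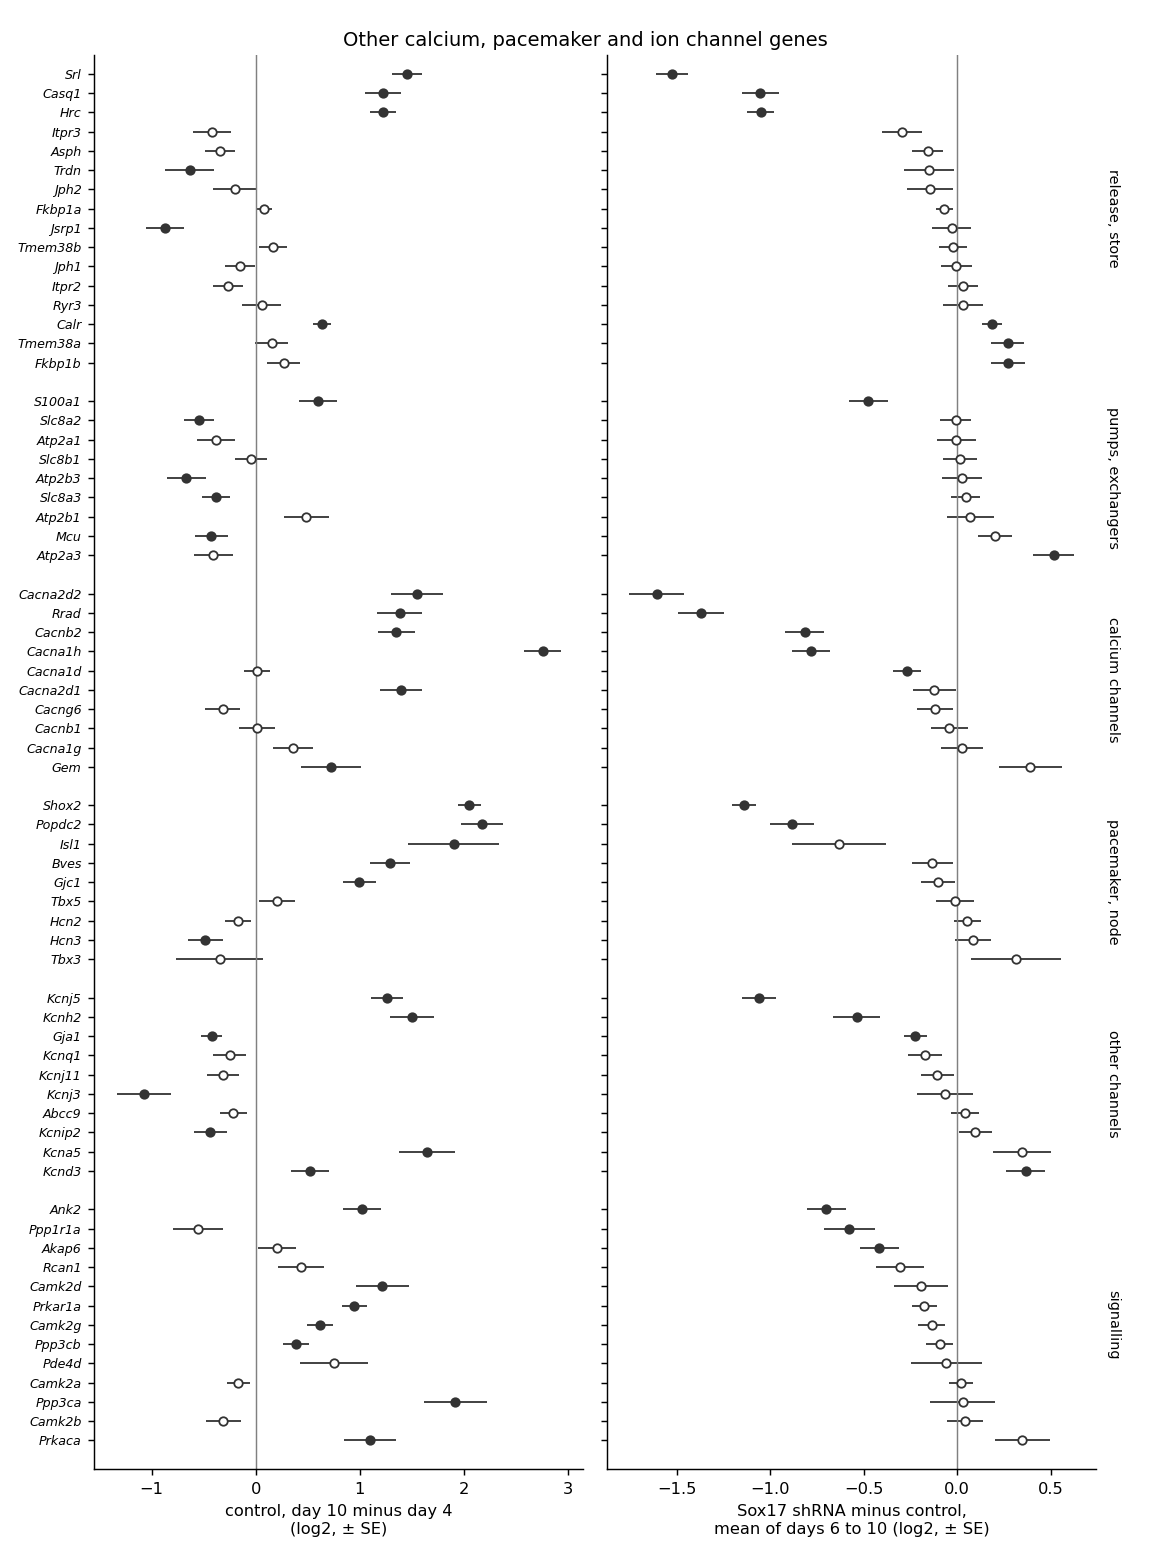
Log2 differences (mean with SE) of the other calcium, pacemaker, ion channel and signalling genes tested, by list, for control day 10 minus day 4 (left) and for Sox17 shRNA minus control averaged over days 6, 8 and 10 (right). Filled points passed the test. In the right panel the lowest points are Cacna2d2 (-1.61) and Srl (-1.53).

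Among all genes tested, those whose course over the 14 group means was most like that of a calcium gene included several sarcomere genes. For Ryr2 the closest was Ttn, which encodes titin (Pearson r = 0.98), followed by Ppp1r3c and Sphkap. For Slc8a1 they were Tecrl, Csrp3 and Asb2, and for Cacna1c Popdc2, Myom1 and Mylk3 (r = 0.98 to 0.99). For Pln, with its later rise, they were Esm1, Sema3d and Foxd1 (r = 0.97 to 0.98), none of them a sarcomere gene. For the brightest Atp2a2 probe set they were Ppp2r2a, Smtn and Naa30 (r = 0.94 to 0.97), and for Casq2 Ldhc, Fetub and Pstpip1 (r = 0.93 to 0.95). These correlations are descriptions over group means that share a time course.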

How the data were processed

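The authors deposited log2 expression values for 45101 probe sets on 27 arrays of RNA extracted with TRIzol and RNeasy reagents, made with RMA per the submitters' processing notes; its version is not given in the sources used here. RMA fits arrays to 1 distribution, so differences are relative to other genes, and folds against a level near background are understated. No counts stand behind array values, so the number of arrays limits precision.

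Probe sets with 1 gene symbol (34958) were kept when above the median of all values (5.53) on at least 2 arrays, and the one with the highest mean represented each of 13297 genes. Gene identifiers matched the RefSeq table of GRCm38.p6 for 34754 of the 34958 probe sets. Arrays were grouped by arm and day from the sample titles. limma 3.58.1 in R 4.3.3 fitted 14 group means to all 27 arrays (13 residual degrees of freedom) with an intensity trend. All p-values are two-sided, adjusted by Benjamini and Hochberg over all genes, with a threshold of 0.05. The script was tested on simulated data.

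The genes of the set and the gene lists were chosen with earlier results of these data known. Named genes are the set, its 3 closest genes each by correlation, the largest rise and fall per list, Sox17, Tnnt2, Myh6 and Nppa. Other named list genes (such as Hrc, Casq1, Cacnb2, Rrad, Popdc2, Kcnh2, Trdn, Jph2 and Eif2s3y) were chosen after their values were seen. Same-numbered arrays of the arms were not all correlated above 0.1 in their deviations (0.0986 to 0.683), so replicate numbers were not taken to pair them. Alternatives were the mean of probe sets, no filter, no trend, array weights, a replicate block, the spike-in as a covariate, each array left out and, added after seeing the data, other probe sets and 2 arrays of high 3' to 5' actin difference left out. Averages over days were also fitted with arm by replicate as a random block.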

Additional observations from a re-analysis of the deposited data

Results flagged for a closer look

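The courses of the arms differed for 4 of the 6 measured genes by tests of the difference itself. Ryr2, Pln and Slc8a1 entered these tests only or almost only through control arrays on which they are high, so the count is a description. The rise from day 4 to day 10 was smaller in the Sox17 shRNA arm by 1.95 for Ryr2 (difference -1.95, adjusted p = 0.00013), by 2.87 for Pln (-2.87, adjusted p = 6.7e-06) and by 1.54 for Slc8a1 (-1.54, adjusted p = 0.00126). Some other probe sets of these genes did not pass: 1421126_at of Ryr2 gave -0.31 (adjusted p = 0.412), and 1420210_at and 1440201_at of Slc8a1 gave -0.24 and -0.20 (adjusted p = 0.85 and 0.713). Each of these probe sets was below the filter on all arrays, near background. In a moderated F test of whether the arm difference was the same on days 4, 5, 6, 8 and 10, which 4.84% of all genes passed, F was 49.3 for Ryr2 (adjusted p = 1.1e-06), 39.2 for Pln (adjusted p = 5.0e-06), 24.6 for Slc8a1 (adjusted p = 0.000101) and 7.77 for Cacna1c (adjusted p = 0.0242). The Cacna1c value lost its call without either control array of day 5, either control array of day 8 or either Sox17 shRNA array of day 8 (adjusted p up to 0.0771).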

How the results depend on the processing

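Averaged over days 6, 8 and 10, Ryr2, Pln, Slc8a1 and Cacna1c kept their call when each array was left out. Representing Atp2a2 by the mean of its probe sets gave -0.46 for the mean of days 4 to 10, where the brightest set gave 0.01, and 0.11 from control day 8 to 10. That mean called 2 of the 6 genes for control day 8 to 10, 5 at day 10 between arms and 4 for the Sox17 shRNA rise, with 73 genes in all for control day 8 to 10. Array weights called 4634, 4662 and 2253 genes for control days 5 to 6, 6 to 8 and 8 to 10 (4 of the 6), 1242, 821, 10, 1063 and 2866 between arms on days 0, 2, 4, 8 and 10, 4850 for the Sox17 shRNA rise and 235 for the difference of rises. The spike-in covariate called 80 genes for control day 8 to 10, 557, 602, 1111 and 1046 between arms on days 0, 2, 4 and 6, 831 for the difference of rises and 1006 by the F test, and 1 of the 6 genes at day 5. It turned Atp2a2 to -0.031 for control day 0 to 10 and -0.080 for the Sox17 shRNA rise. Without the 2 arrays of high 3' to 5' difference, 1369, 931 and 1162 genes passed at day 4, in the difference of rises and in the F test, Atp2a2 gave -0.040 over days 4 to 10, Slc8a1 -0.090 for the Sox17 shRNA rise, Casq2 -0.037 for the difference of rises, and Slc8a1 lost its day 6 call (adjusted p = 0.0693). The replicate block changed no call of the 6 genes and gave 9657 genes for control day 0 to 10.

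With each array left out in turn, the genes called ranged from 857 to 1730 for control day 5 to 6, 262 to 472 for day 6 to 8, 6 to 8 for day 8 to 10 (0 to 0 of the 6 genes) and 4387 to 7014 for day 4 to 10. Between arms they ranged from 76 to 152, 68 to 152, 216 to 1217, 315 to 1710, 229 to 652 (1 to 2 of the 6 genes), 309 to 704 and 540 to 1007 on the 7 days in order, from 249 to 820 for the difference of rises and from 400 to 989 by the F test. Casq2 ranged from -0.23 to 0.054 for control day 8 to 10, -0.19 to 0.087 for day 4 to 10, -0.19 to 0.098 and -0.074 to 0.25 between arms on days 8 and 10, -0.21 to 0.11 for the Sox17 shRNA rise and -0.16 to 0.16 for the difference of rises. Atp2a2 ranged from -0.045 to 0.068 between arms over days 4 to 10 and from -0.11 to 0.45 for the Sox17 shRNA rise, where Slc8a1 ranged from -0.090 to 0.41 and Pln from -0.16 to 0.88. Leaving out an array gives fewer samples. The causes of the other changes were not tested.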

Other observations

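Upstream regulators of the heart muscle programme did not all follow the calcium genes. Of 9 cardiac regulators, all 9 rose from day 0 to day 10 of the control, against 31.5% of all genes, led by Tbx20 (5.68, 51.4-fold). Between arms over days 6, 8 and 10, 4 were lower, against 10.0% of all genes. These were Myocd, the coactivator myocardin (-2.48 ± 0.12, 5.58-fold), Mef2c (-1.82 ± 0.15), Nkx2-5 (-1.44 ± 0.13) and Gata4 (-1.19 ± 0.18). Hand1 was higher by 1.56 ± 0.11 (2.95-fold, adjusted p = 1.6e-08), and Hand2 (0.82, adjusted p = 0.0754) and Tbx20 (0.87, adjusted p = 0.0739) did not pass.

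Within the Sox17 shRNA arm, Grb10 was lower in replicate 1 than in replicate 2 by 3.35 at day 2 and by 5.20 to 5.78 on days 4 to 10, beside the gap in Eif2s3y. The largest gap between those replicates among the calcium genes was that of Pln at day 10, where replicate 2 was higher by 1.04.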
